A study of Homo sapiens with 3 samples.

Results

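Cytosolic ribosomal proteins are the protein parts of the ribosome that translates nuclear mRNAs. The genes were taken as all symbols of the platform annotation that begin with RPL or RPS and a digit, together with RPLP0, RPLP1, RPLP2 and RPSA, leaving out the S6 kinase genes and pseudogenes. This gave 78 genes with 128 probes, of 20046 genes with a named probe. They comprised 43 main proteins of the large (60S) subunit, 25 main proteins of the small (40S) subunit and 10 paralogs, which are copies of a main protein encoded by a separate gene. Main proteins with no probe named for them here were not analysed.

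The cells were MDA-MB-231, a human breast carcinoma line grown from a pleural effusion, in serum-containing medium. A single array was hybridised for each of 3 conditions. The first held cells left untreated for 48 h. The second held cells given ADI-PEG20, a pegylated arginine deiminase that degrades extracellular arginine, at 0.3 µg/ml for 48 h. In the third, 24 h of ADI-PEG20, labelled with the same figure of 0.3 but an incomplete unit, came first, and then the cells had 420 µg/ml of L-arginine during a further 24 h. No condition was replicated, so no difference between conditions was tested and no error between cultures can be given. The only error available was that between probes of 1 gene.

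Ribosomal proteins are made in large and nearly matched amounts, and their synthesis is a major cost of growth. In vertebrates most of their mRNAs belong to the TOP class, which starts with a C followed by an unbroken run of pyrimidines (C or T). When amino acids are scarce, mTORC1 activity falls and LARP1 binds this start, which holds the mRNAs out of translation while protecting them from decay. An array of total RNA measures the amount of these mRNAs and not their translation. Growth control, ribosome stalling on codons of a missing amino acid, and the p53 response to unassembled RPL5 and RPL11 are the settings in which these genes are best known under amino acid loss.

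The start of the mRNA was first looked up for the genes on which the results turn, because the TOP run is the sequence feature by which these mRNAs are known. In the RefSeq promoter table (GRCh38.p14) 66 of the 78 genes had an annotated start. The windows below, read 5′ to 3′ on the strand of the gene, hold 15 bases before and 15 bases from the start on, so that the start is base 16. Capitals mark a run of at least 5 pyrimidines, counted forward from a C that lies at the start or within 5 bases of it. Pyrimidines directly before that C are not counted, so in the genome the stretch can begin earlier than the capitals.
RPL22L1: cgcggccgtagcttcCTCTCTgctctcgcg
RPL22: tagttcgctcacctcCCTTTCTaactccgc
RPL28: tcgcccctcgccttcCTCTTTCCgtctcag
RPS3A: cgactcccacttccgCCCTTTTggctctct
RPL26: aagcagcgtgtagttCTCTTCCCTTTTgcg
RPL26L1: agtcttccaggggtcggcgaacgaaacgcg
RPL36A: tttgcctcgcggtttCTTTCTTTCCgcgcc
RPL36AL: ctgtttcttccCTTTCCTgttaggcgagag
RPL7A: ccacaattccctttcCTTTCTCTCTCCTCC
RPL21: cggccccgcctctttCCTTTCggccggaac
RPL4: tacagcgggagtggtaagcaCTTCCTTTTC
RPL14: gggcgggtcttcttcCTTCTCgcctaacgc

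The windows lie at chr3:170870181-170870210 (minus strand) for RPL22L1, chr1:6199581-6199610 (minus) for RPL22, chr19:55385917-55385946 (plus) for RPL28 and chr4:151099613-151099642 (plus) for RPS3A. Those of RPL26 and RPL26L1 lie at chr17:8383179-8383208 (minus) and chr5:172958714-172958743 (plus). Those of RPL36A and RPL36AL lie at chrX:101390996-101391025 (plus) and chr14:49620612-49620641 (minus). RPL7A is at chr9:133348203-133348232 (plus), RPL21 at chr13:27251543-27251572 (plus), RPL4 at chr15:66504841-66504870 (minus) and RPL14 at chr3:40457324-40457353 (plus). Each window spans the annotated first base of an mRNA of the gene, with promoter sequence before it and exon 1 sequence after it. Among those shown, the run as counted began exactly at the annotated start except in RPL36AL, RPL4 and RPL26L1. In RPL36AL and RPL4 it was counted from a C a few bases before or after the start. In RPL36AL further pyrimidines lie directly before that C. RPL26L1 had no run at either of its annotated starts.

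Over all 66 genes with an annotated start, 45 (68.2%) had the run exactly at a start, against 6.24% of 15843 protein-coding genes in the same table. Within 5 bases of the start the shares were 80.3% and 28.0%. In the 300 bases from 250 before to 50 after the start, searched on both strands, the letters CCGGAAG, a core bound by ETS family factors, were present in 34.8% of the ribosomal protein genes and 16.5% of protein-coding genes. CACGTG, the E-box core bound by MYC, was present in 7.58% and 10.9%. TGATGNAA, a form of the element bound by ATF4, was present in 3.03% and 3.60%. These matches describe the annotated sequence and do not show binding.

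Most ribosomal protein genes gave some of the brightest signals on the arrays. Of 131 named probes with a mean intensity of at least 15000, 52 (39.7%) belonged to them, although they made up 0.425% of named probes. The median over genes of the brightest probe was 15892 on the untreated array, 17009 on the ADI-PEG20 array and 15148 on the arginine array. On the untreated array 44 genes lay above 10000, 21 above 20000 and 11 below 1000. Brightness depends on the probe's sequence as well as on the mRNA, so these values do not order the genes by amount. The 3 arrays hold nearly the same set of values in another order, with the same maximum, so a change in total RNA per cell would not be seen.

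A probe counted as above background where its intensity exceeded 163.7, which is 3 background SDs above the background mode of 137.1. By this rule 74 of the 78 genes were above background on all 3 arrays. RPL10, whose protein joins the 60S subunit late in its assembly near the peptidyl transferase centre, was not above background with either of its probes, which read between 129 and 144 on the 3 arrays. RPL10L, its testis-enriched paralog, and RPL3L, the heart and skeletal muscle paralog of RPL3, were also not above background on any array. The Y-linked paralog RPS4Y1 lay near the limit, and RPS4Y2 passed it on 1 array only. These Y-linked genes are counted but left out of the plots and of the orders of single genes given below. The line's identity was checked on markers: VIM, CD44, MSN, EGFR, CAV1 and AXL were above background on all 3 arrays, SPARC was not, and the luminal genes ESR1, PGR and FOXA1 were not. The luminal gene GATA3 was above background on the ADI-PEG20 array only, at 174. The luminal markers CDH1, which peaked at 374 under ADI-PEG20, and KRT19, between 1724 and 2269, were above background. The leukocyte markers PTPRC, CD3E and ITGAM, the endothelial marker CDH5 and the fibroblast markers DCN and COL1A1 were not. The endothelial marker PECAM1 was above background on 2 arrays, at 167 and 168, and the fibroblast marker PDGFRB on all 3, between 182 and 211.

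**Figure D1:**
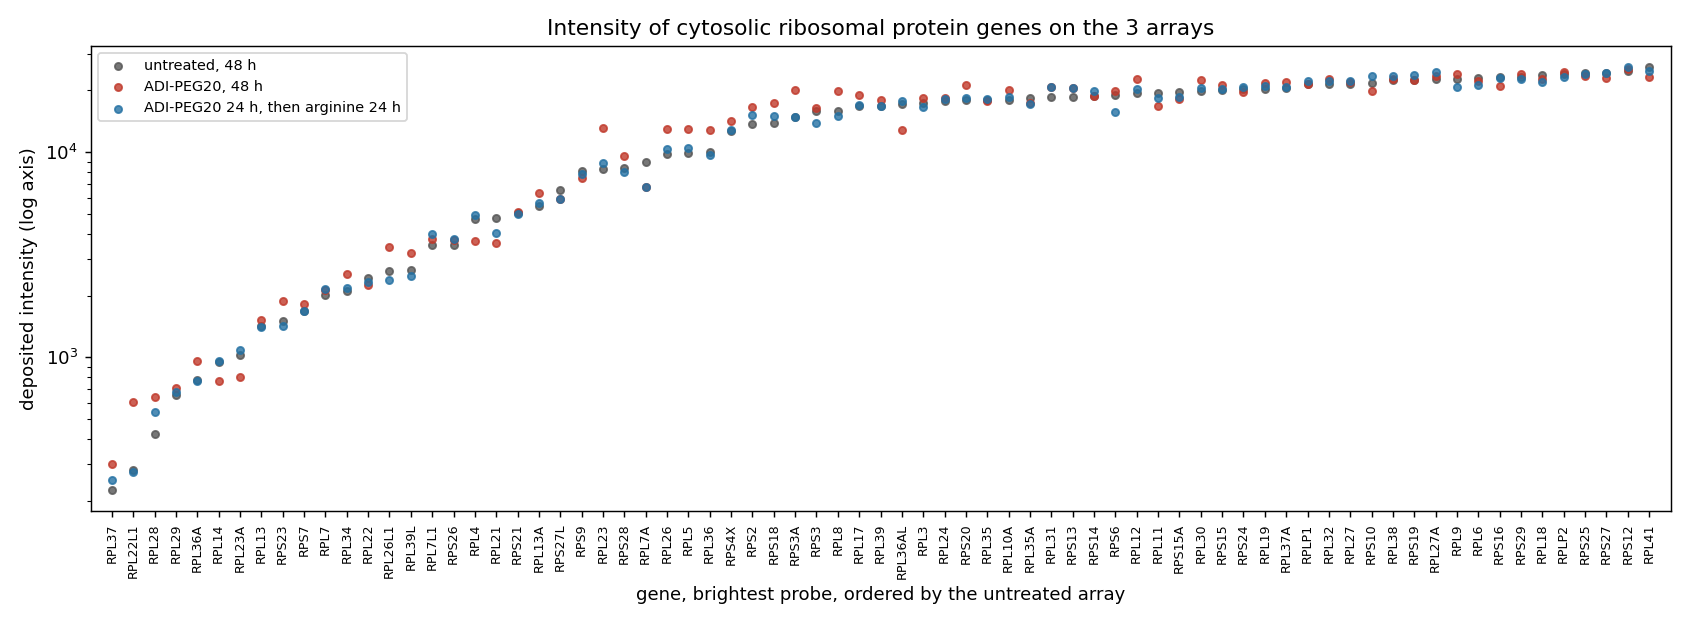
Deposited intensity (log axis) of the brightest probe of each of 73 ribosomal protein genes on the 3 arrays, ordered by the untreated array; each point is 1 array. Most genes lie above 10000 with the 3 points close together, while RPL22L1, at the dim end, stands apart on the ADI-PEG20 array at 603.

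The first comparison, ADI-PEG20 for 48 h against untreated, addresses how arginine loss changed the amount of these mRNAs. Most were a little higher under ADI-PEG20 and few moved far. The median difference over 74 genes, as log2 of background-corrected intensity, was 0.08, with 50 genes higher (67.6%), 23 lower and 1 equal. Over all 11084 genes above background on either array the median was 0.00 and 49.6% were higher. Both subunits had a median above 0: the 60S median was 0.09, with 29 of 42 genes higher, and the 40S median was 0.06, with 16 of 25 higher.

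At a threshold of 1.5-fold, 4 ribosomal protein genes were higher, where 7.9% of all genes were, and none was lower, where 9.35% of all genes were. Past 2-fold there was 1, the paralog RPL22L1, which was higher. Of all 11084 genes, 193 were higher and 238 lower by that much. The SD across the 74 genes was 0.30, against 0.46 across all genes. Among genes with a mean intensity of at least 1000 it was 0.21 for 66 ribosomal protein genes and 0.40 for all 2834 genes. For single probes with a mean below 1000 it was the other way round, 0.53 over 23 ribosomal protein probes and 0.43 over 9546 probes of other genes. For probes of at least 15000 the SDs were closer, 0.15 over 52 ribosomal protein probes and 0.19 over 79 probes of other genes. The probe error was 0.21 over 34 ribosomal protein genes with several probes above background. It is the SD of the difference between the log2 differences of a gene's 2 brightest probes, divided by the square root of 2. Differences of single genes below about that size cannot be told from it, and somewhat larger ones can also fall within its spread. Dim and bright probes of 1 gene can differ by more, as in RPS26, at -0.78 and 0.08.

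**Figure D2:**
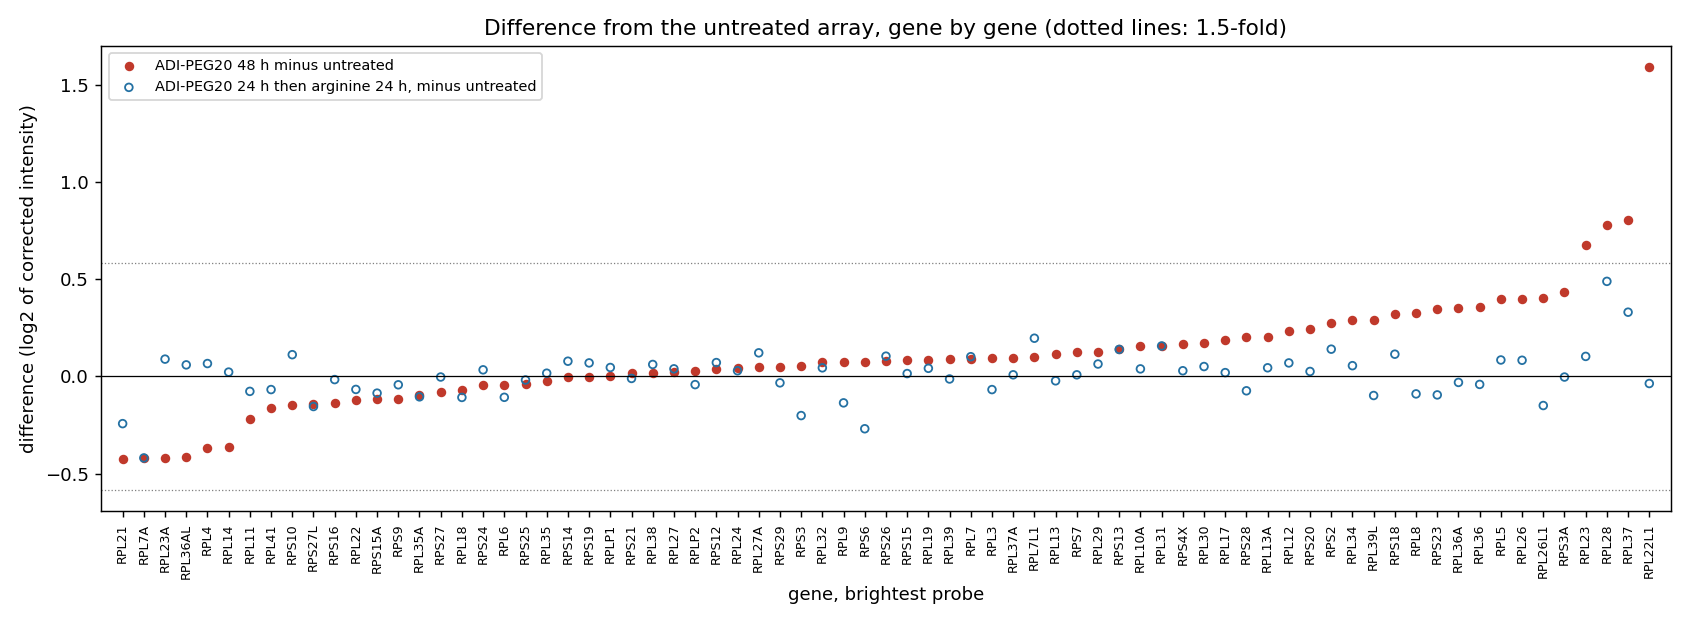
Difference from the untreated array (log2 of corrected intensity) for 73 ribosomal protein genes, ordered by the ADI-PEG20 difference; filled points are ADI-PEG20 for 48 h and open points are ADI-PEG20 followed by arginine, with 1 array each. RPL22L1 at 1.59, RPL37, RPL28 and RPL23 lie above the dotted 1.5-fold line, no gene lies below the lower line, and the open points lie mostly near 0.

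RPL22L1 showed the largest difference. Its protein is a paralog of the 60S protein RPL22 and can take its place in the ribosome, and in the mouse RPL22 represses the RPL22L1 mRNA. RPL22L1 read 281 on the untreated array, 603 on the ADI-PEG20 array and 277 on the arginine array. It was thus high on the ADI-PEG20 array alone, by 1.59 on the log2 scale or 3.02-fold after background correction, and by 1.10 without that correction. The gene had a single probe, so no second probe bears on it. RPL22 itself read 2426, 2240 and 2322 in the same order, a difference of -0.12 under ADI-PEG20.

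The other genes past 1.5-fold belonged to the 60S subunit. RPL23, which also binds the p53 regulator MDM2, read 8238 on the untreated array, 13124 under ADI-PEG20 and 8841 with arginine, a difference of 0.68 under ADI-PEG20. RPL28, a 60S protein that budding yeast lacks, read 421, 637 and 542 in that order, a difference of 0.78. RPL37 read 225, 303 and 252, a difference of 0.81, and its second probe, at 162, 176 and 151, was above background on the ADI-PEG20 array only. On the arginine array RPL23 and RPL22L1 lay close to the untreated value, whereas RPL28 and RPL37 lay between the other arrays. RPL28 and RPL37 were dim, and RPL37 lay within a narrow margin of the background limit.

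Below 1.5-fold, the next highest were RPS3A at 0.43, RPL26L1 at 0.41, RPL26 and RPL5 at 0.40, RPL36 at 0.36 and RPL36A at 0.35. RPS3A, which lies near the mRNA exit of the 40S subunit, had 3 bright probes that read 14901, 13317 and 13207 on the untreated array and 20079, 16378 and 15910 under ADI-PEG20. All 3 probes were higher, by 0.43, 0.30 and 0.27, and on the arginine array all lay within 0.06 of the untreated value. RPL26, at the rim of the peptide exit tunnel, read 9827 untreated, 12914 under ADI-PEG20 and 10405 with arginine. Its paralog RPL26L1 was higher with both probes, by 0.41 and 0.43.

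The lowest differences under ADI-PEG20 were close to one another. RPL21 read 4774 on the untreated array, 3592 under ADI-PEG20 and 4054 with arginine, a difference of -0.42. RPL7A read 8978, 6736 and 6743 in that order, also -0.42, and was as low with arginine as with ADI-PEG20 alone. RPL23A, which lies at the tunnel exit where the signal recognition particle docks, read 1028, 800 and 1086, again -0.42, so it was low on the ADI-PEG20 array alone. RPL4, which lines the constriction of the tunnel, was at -0.37, and RPL14 was at -0.36 with one probe and -0.53 with the other. RPL11 followed at -0.22, then RPL41 at -0.16, and RPS10, a target of ZNF598 on collided ribosomes, and RPS27L at -0.14. RPL21, RPL7A, RPL23A and RPL4 each had 1 probe.

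Within the 40S subunit, whose main proteins spanned -0.14 to 0.43, the higher values came from proteins of several sites. RPS23 was at 0.35 and RPS18, at the head of the subunit, read 13952 untreated, 17412 under ADI-PEG20 and 15098 with arginine, a difference of 0.32. RPS2, at the mRNA entry, read 13798, 16693 and 15199, a difference of 0.28, and RPS20 read 17957, 21232 and 18279, a difference of 0.24. For all of these the ADI-PEG20 array was the highest. On the arginine array RPS18 and RPS2 were still above the untreated value, by 0.11 and 0.14, and RPS23 was at -0.09. The lowest 40S genes besides RPS10 were RPS16 at -0.14, and RPS15A and RPS9 at -0.12. The other 2 RPS15A probes were at 0.15 and 0.07, and the second RPS9 probe was at -0.11.

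In the 60S subunit RPL8, close to the peptidyl transferase centre, read 15910 untreated, 19906 under ADI-PEG20 and 14959 with arginine on its bright probe, a difference of 0.33. RPL34 was at 0.29, RPL12, at the base of the stalk, at 0.23, RPL13A at 0.21, RPL17 at 0.19 and RPL30 at 0.17. RPL13A, which has a role in interferon-dependent translational silencing outside the ribosome, read 5473, 6290 and 5641 in the same order. RPL31 read 18580 untreated, 20739 under ADI-PEG20 and 20705 with arginine, and RPS13 of the 40S subunit read 18659, 20540 and 20540. RPL31 and RPS13 were therefore as high on the arginine array as on the ADI-PEG20 array, by 0.16 and 0.14.

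RPL36A and RPL36AL, an X-linked gene and its autosomal paralog that encode near-identical proteins, differed in direction. RPL36AL read 17137 on the untreated array, 12866 under ADI-PEG20 and 17857 with arginine, and its second probe read 12021, 9207 and 11936. The differences under ADI-PEG20 were -0.42 and -0.39. RPL36A read 776, 957 and 762, a difference of 0.35. The ADI-PEG20 array was thus the lowest of the 3 for the paralog and the highest for the main gene, and on the arginine array both lay within 0.06 of the untreated value.

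The other paralogs differed less from their main genes. RPL39L, a testis-enriched paralog of the tunnel protein RPL39, was at 0.29 with one probe and 0.17 with the other, and RPL39 was at 0.09. RPS27L, a target of p53, was at -0.14 and its main gene RPS27 at -0.08. RPL7L1 was at 0.10 and RPL7 at 0.09. Over the 7 paralogs that entered this comparison the median was 0.20, with 5 higher. That median is the value of the Y-linked RPS4Y1, whose probe read 192, 202 and 199, near the background limit.

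**Figure D3:**
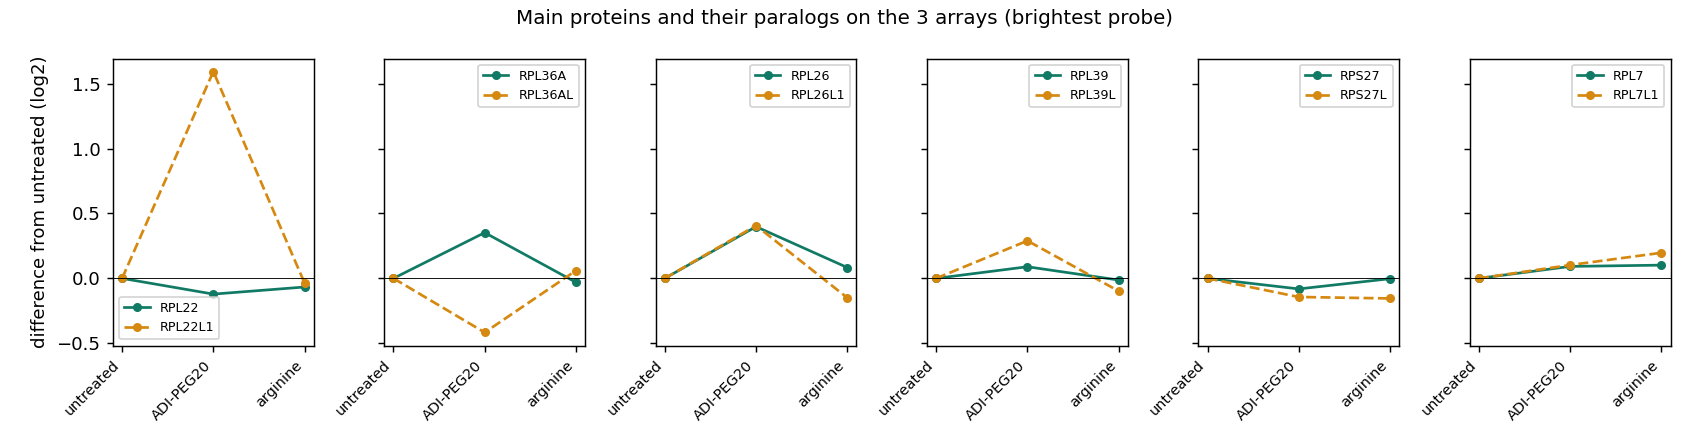
Difference from the untreated array (log2) on the untreated, ADI-PEG20 and arginine arrays for 6 main genes (solid lines) and their paralogs (dashed lines), brightest probe, 1 array per point. RPL22L1 stands away from RPL22 on the ADI-PEG20 array only, RPL36AL and RPL36A part in opposite directions there, and the other pairs lie closer together.

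Grouped by role in the ribosome, the differences were small or mixed. The P-stalk proteins RPLP1 and RPLP2, which recruit elongation factors, were at 0.00 and 0.03. RPL5, RPL11 and RPL23, which bind MDM2 when not built into ribosomes, the former pair as part of the 5S RNP, were split: RPL5 read 9864 untreated, 12957 under ADI-PEG20 and 10456 with arginine, a difference of 0.40, while RPL11 read 19432, 16735 and 18432, a difference of -0.22. The second RPL11 probe was at -0.09. Around the exit tunnel 9 genes had a median of 0.08, with 6 higher, and along the decoding site and mRNA path 7 genes had a median of 0.08, also with 6 higher. Of the genes mutated in Diamond-Blackfan anaemia, a disease of ribosomal protein loss, 16 of 18 were measured, with a median of 0.01, 8 higher and 8 lower.

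The 5 genes with the brightest probes were RPL41, RPS12, RPS25, RPS27 and RPLP2, and under ADI-PEG20 they lay between -0.16 for RPL41 and 0.04 for RPS12. The size of the difference under ADI-PEG20 varied with the brightness of the probe. Over single probes of ribosomal protein genes above background on all 3 arrays, the median difference was 0.37 for 23 probes with a mean intensity below 1000, and 17 were higher. It was 0.12 for 21 probes from 1000 to 5000 and 0.20 for 24 probes from 5000 to 15000. For the 52 probes of at least 15000 it was 0.04, with 31 higher. Probes of other genes in the same 4 bands had medians of 0.01, -0.01, -0.05 and -0.09.

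The same was seen within genes. In 34 ribosomal protein genes with several probes above background on all 3 arrays, the dimmest probe gave the higher difference under ADI-PEG20 in 22, or 64.7%, against 52.7% of 2498 other genes. Where the brightest probe exceeded 10000 it was 18 of 24 ribosomal protein genes, or 75.0%, against 51.2% of 82 other genes. In those 24 genes the median was 0.29 with the dimmest probe and 0.07 with the brightest. RPL9, for example, read 22865 untreated, 24056 under ADI-PEG20 and 20821 with arginine on its brightest probe, a difference of 0.07 under ADI-PEG20. Its 2 dimmer probes read 4545, 6921 and 5119, and 1146, 1730 and 1116, differences of 0.62 and 0.65. The dimmer RPL9 probes were highest on the ADI-PEG20 array by far, the brightest one only narrowly.

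RPLP1 likewise was at 0.00, 0.25 and 0.61 from its brightest to its dimmest probe, RPL17 at 0.19, 0.14 and 0.54, and RPL12 at 0.23 and 0.50. RPL41, the shortest ribosomal protein, was at -0.16 with a probe that read 26005, 23230 and 24824, and at 0.54 with one that read 343, 442 and 347. RPL32 and RPS29 were at 0.07 and 0.05 with the brightest probe and at 0.48 and 0.46 with the dimmest. The reverse was found in RPL8, at 0.33 with the bright probe and -0.31 with the dim one, in RPS26, at 0.08 and -0.78, and in RPS15, at 0.08 and -0.27. Probes of 1 gene can detect different transcripts, and bright probes lie close to the shared maximum of the arrays. The background correction widens the differences of dim probes in both directions, while the offset of 16 narrows them. Without the correction the dim RPL41 probe was at 0.37 in place of 0.54, and the dim RPS26 probe at -0.40 in place of -0.78. The part of each in this pattern was not tested.

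**Figure D4:**
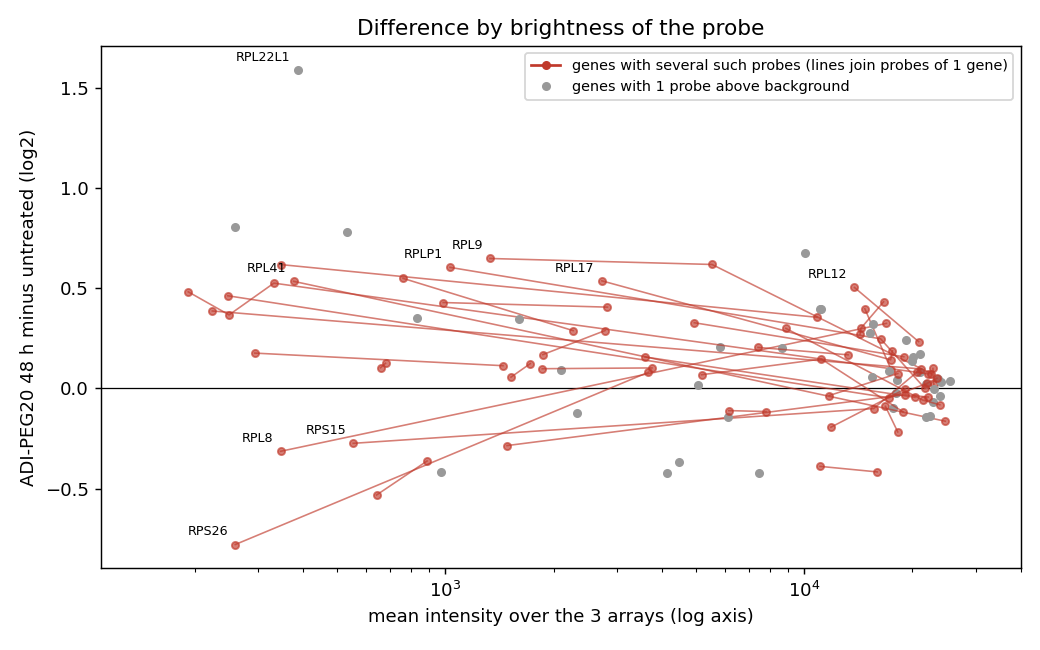
Difference under ADI-PEG20 (log2) against mean intensity over the 3 arrays (log axis) for each ribosomal protein probe above background on all 3 arrays; lines join probes of 1 gene and grey points are genes with 1 such probe. Many lines slope down from dim to bright probes, as for RPL9, RPLP1 and RPL41, while RPS26, RPL8 and RPS15 slope up. Probes of at least 15000 have a median of 0.04 and an SD of 0.15, with RPL36AL at -0.42 and RPS3A at 0.43 among them.

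The second comparison, arginine added back after ADI-PEG20 against untreated, asks how far the amounts had returned. It must be read with the design: this sample had 24 h of ADI-PEG20 where the other had 48 h, and the 3 comparisons share arrays, so they are not independent. Ribosomal protein genes lay close to the untreated values. The median over 75 genes was 0.02, with 43 higher (57.3%) and 32 lower, where 48.6% of all 11027 genes were higher. In the bright genes of at least 1000 the SD was 0.11 for ribosomal protein genes and 0.16 for all genes. For single probes with a mean of at least 15000 it was 0.09 both for 52 ribosomal protein probes and for 79 probes of other genes. The probe error over 34 genes was 0.13.

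Past 1.5-fold, 1 gene was higher, where 2.55% of all genes were, and none was lower, where 2.64% of all genes were. That gene was RPS4Y2, above background on the arginine array only, so its fold is a bound of at least 1.29-fold and does not reach the threshold by itself. The highest of the rest were RPL28 at 0.49, RPL37 at 0.33, RPL7L1 at 0.20, RPL31 at 0.16, RPS2 and RPS13 at 0.14, RPL27A at 0.12, and RPS18 and RPS10 at 0.11. The lowest were RPL7A at -0.42, RPS6 at -0.27, RPL21 at -0.24 and RPS3 at -0.20. RPS6, the phosphorylation target of the S6 kinases, read 18941 on the untreated array, 19943 under ADI-PEG20 and 15737 with arginine, and RPS3, at the mRNA entry, read 15874, 16496 and 13821. With these probes both were lowest on the arginine array, whereas RPL7A and RPL21 were low on both treated arrays. The second RPS6 probe read 12090, 11802 and 11293, a difference of -0.10 with arginine, which is within the probe error. RPS27L and RPL26L1 at -0.15, RPL9 at -0.14, RPL6 and RPL18 at -0.11 and RPL35A at -0.10 followed.

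Against ADI-PEG20 for 48 h, the arginine array was lower for most of these genes. The median over 75 genes was -0.05, with 28 higher (37.3%) and 46 lower, where 49.8% of all 11062 genes were higher. Past 1.5-fold 1 gene was higher, again RPS4Y2 by its measured value with the same bound, where 9.92% of all genes were. Also 1 was lower, RPL22L1 at -1.63, where 8.87% of all genes were. RPL23 at -0.58, RPL26L1 at -0.56, RPL37 at -0.48, RPS23 and RPS3A at -0.44, RPL8 at -0.42, RPL36 at -0.40, RPL39L at -0.39 and RPL36A at -0.38 came next. RPS23, a decoding centre protein, read 1508 on the untreated array, 1886 under ADI-PEG20 and 1420 with arginine, so the ADI-PEG20 array was again the highest. The highest differences were those of RPL23A at 0.51, RPL36AL at 0.48, RPL4 at 0.43, RPL14 at 0.39 and RPS10 at 0.26, then RPL21 at 0.18, RPL11 at 0.14, RPS16 at 0.12 and RPL41 at 0.10.

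Over the 74 genes above background on all 3 arrays, the ADI-PEG20 array was the highest for 43, or 58.1%, where it was the highest for 41.3% of all 9810 such genes. The arginine array lay nearer to the untreated than to the ADI-PEG20 array for 50, or 67.6%, close to the 70.4% of all genes.

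**Figure D5:**
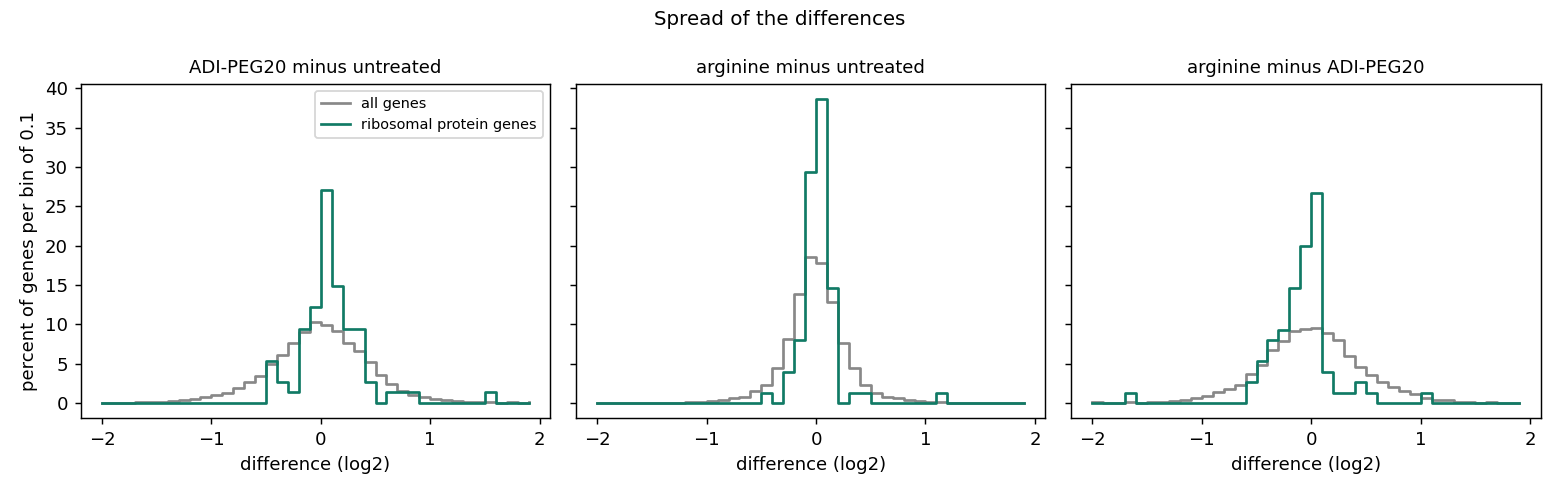
Percent of genes in bins of 0.1 of the log2 difference, for all genes above background (grey) and for ribosomal protein genes (green), in the 3 comparisons; differences beyond 2 are drawn in the outermost bin. Taken over all brightness levels, ribosomal protein genes are narrower than all genes in each panel, with SDs of 0.30, 0.18 and 0.31 against 0.46, 0.28 and 0.47, and RPL22L1 stands alone at 1.59 and -1.63 in the first and last panels.

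Whether the TOP run at the start went with the difference was compared among the genes. Under ADI-PEG20 the 44 genes with the run exactly at an annotated start had a median difference of 0.04, with 26 higher, and the 19 without it had 0.08, with 15 higher. The ranges overlapped widely, from -0.42 to 1.59 and from -0.42 to 0.41. With CCGGAAG in the promoter window the median was 0.08 over 22 genes, and without it 0.05 over 41.

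Genes tied to ribosomal proteins by function or by name were set beside them. FAU, which encodes the 40S protein eS30, was at 0.11 under ADI-PEG20. A list of 18 other TOP mRNAs, mostly elongation and initiation factors, had a median of 0.08, with 12 higher, beside 0.08 for the ribosomal protein genes. In it EIF4A2, an mRNA helicase subunit, read 6811 on the untreated array, 10070 under ADI-PEG20 and 6826 with arginine, a difference of 0.57, and EEF1B2 was at 0.37. HNRNPA1 was at -0.66 with a dim probe and at -0.11 with a second one.

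Among regulators of TOP mRNAs, 10 of 11 entered, with a median of -0.02, and 2 were past 1.5-fold upward, where 7.9% of all genes were. CNBP, a zinc finger protein that binds the start of TOP mRNAs, read 3701 on the untreated array, 7253 under ADI-PEG20 and 3833 with arginine. It was high under ADI-PEG20 alone with all 3 of its probes above background, by 0.99, 1.03 and 0.85. EIF4EBP1, the mTORC1-controlled inhibitor of cap-dependent initiation, read 283, 457 and 271, a difference of 1.06, with 1 probe. The single LARP1 probe was not above background on any array. MTOR was at -0.09 and RPTOR at 0.25.

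The 7 measured genes with an RPS6K symbol, grouped by name and not by substrate, had a median of -0.03. RPS6KA2, a p90 kinase, was at 1.31 with a dim probe reading 190, 292 and 213, and its other 2 probes were not above background. RPS6KB2 was at -0.28, RPS6KA4 at 0.20 and RPS6KB1, the main S6 kinase, at -0.17. Chaperones and importers of ribosomal proteins numbered 13, with a median of -0.06. TSR2, the chaperone of RPS26, read 1991, 1240 and 1910 and was at -0.74, so it was low on the ADI-PEG20 array alone. PDCD2, the chaperone of RPS2, was at 0.72 with one probe and at -0.16 with the other, and the importer IPO5 was at 0.57. Factors of ribosome rescue and quality control numbered 9, with a median of 0.24 and 5 higher. EDF1, which binds collided ribosomes, was higher with both probes, by 0.52 and 0.66. LTN1, the ligase that tags stalled chains, was at 0.48 and 0.32 with its probes above background, and PELO, which splits stalled ribosomes, was at -0.43.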

How the data were processed

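Per the labels, biotin-labelled RNA of 3 MDA-MB-231 samples went onto 1-colour Illumina bead arrays. The values used are linear intensity as deposited by the authors, for 47231 probes. The submitters' processing notes name GenomeStudio; the normalization is not given in the sources used here. Once sorted, values of the arrays differed by at most 0.502%, with medians of 149.35, 149.35 and 149.34. A second deposited table was not used, since its 6 value columns match no single sample label, so that the background model planned on it was fitted to the deposited intensity instead.

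Each intensity was corrected by normexp (background mode 137.1, SD 8.85, exponential mean 425), and log2 was taken after adding an offset of 16. The platform annotation names 1 gene for 30113 probes, several for 8 and none for 17110. A gene was represented by its brightest probe and entered a comparison if above 163.7 on either array; 37.8% of probes were above it on each array. Precision is limited by the number of arrays. Background was computed from these arrays, after they were seen. A fold against an array where the probe is not above background uses the lowest value above background there and is written as at least.

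Python 3.11.15, numpy 2.4.6, scipy 1.17.1 and pandas 2.3.3 were used, and the steps were tested on simulated data. The genes and lists were chosen with earlier results of these data known. The genes named were the 10 highest and 10 lowest of each comparison, every paralog, the P-stalk and 5S RNP genes, genes with discordant probes, the 5 brightest, those never above background, and the 3 largest differences of each pathway list. The brightness bands, and other genes named in the text, were chosen after their values were seen. Sequences are from RefSeq, matched by symbol.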

Additional observations from a re-analysis of the deposited data

How the results depend on the processing

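Across all settings tried the median difference of ribosomal protein genes stayed positive for ADI-PEG20 against untreated (0.07 to 0.20) and for arginine against untreated (0.01 to 0.03), and negative for arginine against ADI-PEG20 (-0.20 to -0.04). No median changed sign. Single genes were followed for only part of the 78 genes. RPS26, RPS15, RPS15A, RPS24 and RPS27, whose probes differ in sign under ADI-PEG20, were not among them. For the genes followed, 8 values changed sign with the mean of all probes. RPL41 went from -0.16 to 0.19 under ADI-PEG20 and from 0.10 to -0.21 for arginine against ADI-PEG20, RPL14 from 0.02 to -0.15 and RPL36 from -0.04 to 0.19 for arginine against untreated, and the other 4 moved by less than the probe error. For ADI-PEG20 against untreated, the median was 0.13 without members above 20000, with 14 lower, and 0.20 using the brightest probe under 10000, with 31 higher and 11 lower. With the dimmest probe above background, 8 genes passed 1.5-fold in place of 4. For the counts past 1.5-fold in these settings, no share over all genes is given. For arginine against untreated, 0 passed 1.5-fold without background correction, with both arrays required above background, with a limit of 5 SDs, with the mean of all probes, without paralogs and with the dimmest probe; 28 were higher without members above 20000, and 23 higher and 20 lower with the brightest probe under 10000. For arginine against ADI-PEG20, 1 passed 1.5-fold without background correction, with an offset of 50, with both arrays required, with 5 SDs and with the mean of all probes, 0 without paralogs, and 4 with the dimmest probe. The median there was -0.11 with the mean of all probes and with the dimmest probe, -0.12 without members above 20000 (16 higher), and -0.20 with the brightest probe under 10000 (14 higher, 29 lower). Counts fall in part because the settings that drop genes test fewer of them, and the cause of the other moves was not tested. Of the values of the single genes followed, these 8 included, 207 moved by less than the probe error and 15 by more. Genes not followed may have moved more. The dimmest probe and the brightest probe under 10000 were added after seeing the data. No paired analysis was possible because each group has 1 array. Without replicates, no difference between conditions can be set against the spread between cultures, and signal near background limits RPL37, RPL22L1 and the other dim genes.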

Other observations

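Probes named for ribosomal protein pseudogenes were not counted among the 78 genes. Several were as bright as the main genes: RPL13AP5 read 26238 on the untreated array, 25629 under ADI-PEG20 and 28165 with arginine, and RPS26P11 read 11510, 12404 and 11706. Pseudogene transcripts share most of their sequence with the main mRNA, so such probes may not tell them apart. RPL23AP87 read 5533, 3967 and 5483, a difference of -0.49 under ADI-PEG20, and RPL23AP64 was at -0.47 with its bright probe, beside -0.42 for RPL23A itself. RPL23AP53 went the other way, at 0.79. The probes of RPL23AP32, at -0.24 and 0.18, and of RPL23AP7, at -0.06 and 0.11, were mixed. RPL21P28 was at -0.33 and -0.12 with its probes, beside -0.42 for RPL21.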
